A study of Bos taurus with 28 samples.

Results

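Bovine blastocysts of day 7 were compared with attaching conceptuses of day 19 by mRNA sequencing. The comparison used the libraries labelled day 7 or day 19 whose file carries a title of the same day, which gave 9 of the 28 libraries of the series: 5 of the 6 labelled day 7 and 4 of the 5 labelled day 19. Day 19 replicate 5, whose file is titled for a day 7 sample, and day 7 replicate 6, whose file is titled for a day 16 sample but marked as day 7, were left out by title and not by their values. The values of the first also went against its label and those of the second in part, and both are described apart, after the comparison. Day 16 replicate 5, titled for a day 19 sample, was left out of all day 16 values. The labels give no replicate numbers, so libraries are numbered in order of accession within a day, and each of the 9 files used carries the title of another sample of its own day, so that a replicate number marks a file and not a known conceptus or pool. All donors were crossbred beef heifers of about 18 months, with oestrus synchronised by progesterone and a prostaglandin analogue and inseminated from a single bull. The day 7 group had 9 heifers, which were superovulated with FSH, and their blastocysts were pooled in groups of 5, so that a day 7 library averages several embryos. The day 19 group had 15 heifers, which were not superovulated, and each library is a single conceptus. Polyadenylated RNA was taken directly from the day 7 pools on beads, whereas day 19 conceptuses first went through TRIzol and column extraction, with 2 rounds of bead selection on both days. Day, superovulation, pooling and RNA preparation therefore cannot be told apart in any difference given here. The labels do not tie libraries to heifers, so the p-values speak of the spread among these samples only.

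On day 7 the bovine embryo is a blastocyst, a hollow sphere with an outer trophectoderm, which will build the fetal side of the placenta, and an inner cell mass, from which the embryo proper and the hypoblast arise. In cattle the blastocyst hatches and stays free in the uterus, where the trophoblast grows from a sphere through an ovoid form into a long filament. During this elongation the trophoblast secretes interferon tau, the signal by which the mother recognises the pregnancy, and gastrulation begins in the embryonic disc. By day 19 the filament begins to adhere to the uterine lining, with most of its mass in trophoblast and extraembryonic membranes. A library of day 19 thus comes from a far larger and differently composed tissue than a library of day 7, and in such bulk samples fewer cells of a type and less RNA per cell cannot be told apart. Transcripts carry Ensembl identifiers that the files do not pair with gene names, so neither stage could be checked against marker genes, and transcripts are described by identifier, length and level.

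Depth differed between the days, and day 7 replicate 5 stood apart, as the shallowest library and with 34.3% of its reads in a single transcript. The day 7 libraries held 720939, 5882457, 1078964, 3300915 and 473552 reads in order of replicate number, and the day 19 libraries held 5344893, 10677917, 10871501 and 10141532. A transcript without a read in the shallowest day 7 library could still lie at up to 6.34 CPM (reads per 1e6), against 0.276 CPM in the deepest day 19 library, where the limit is 3 reads of the total and covers counting error only. Levels are the deposited RPKM values, reads per kilobase of transcript and per 1e6 reads of the library. Changes are differences of log2(RPKM + 1), day 19 minus day 7, which understate the change of low transcripts.

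Of 28054 listed transcripts, 14597 reached 1 RPKM in at least 4 of the 9 libraries and were tested with limma. A transcript was called where its change passed 1 log2 unit in either direction and its p, adjusted by Benjamini and Hochberg's method, was under 0.05. These were 1740 transcripts, 11.9% of those tested. On day 19, 838 were higher (5.74% of those tested) and 902 were lower (6.18%). The plot of mean levels by day shows both sets over a wide range of levels, but not over the same one. On day 19, 203 of the higher and 6 of the lower transcripts had a mean of at least 100 RPKM. The median change over all tested transcripts was -0.05. In 2315 tested transcripts (15.9%) the 9 libraries fell into separate ranges by day, among them 729 of the 838 higher and 716 of the 902 lower. Centring each library on its median raised the median change of all tested transcripts to 0.145 and gave 1300 higher and 800 lower, and leaving a single 92-nucleotide transcript out of the totals gave 791 and 1397. Calls fell to between 454 and 881 without any 1 of the 4 day 19 libraries, rose to 2964 without day 7 replicate 5, and numbered 149 (4 higher, 145 lower) with total reads as a covariate; with the left-out libraries placed by label, 1 transcript was called.

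**Figure D1:**
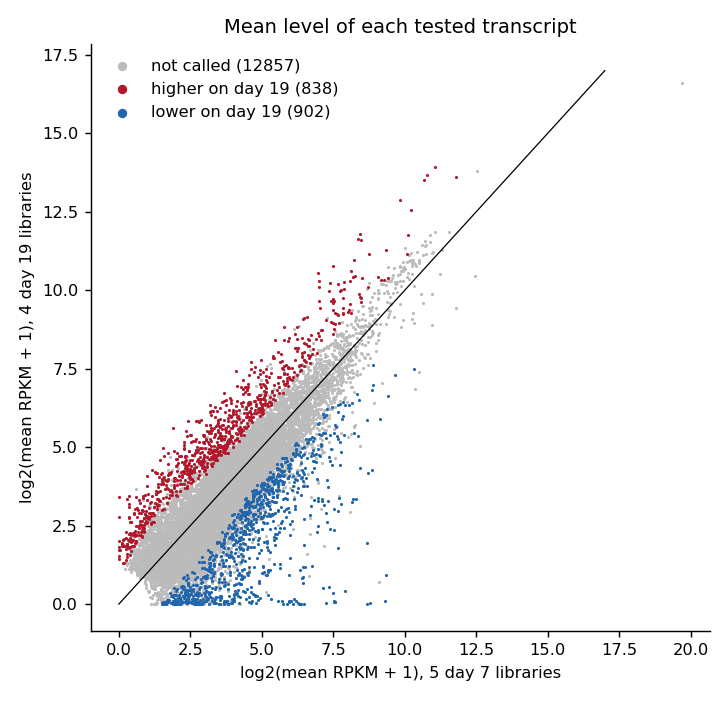
Mean level of each of the 14597 tested transcripts, as log2(mean RPKM + 1) over the 5 day 7 libraries (x axis) and the 4 day 19 libraries (y axis); each point is a transcript and the line marks equal levels. The 838 transcripts higher on day 19 (red) lie above the line, and many of the 902 lower ones (blue) lie at or near 0 on day 19.

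The largest falls exceeded the largest rises. Among the higher transcripts the median change was 1.89 and the largest was 4.78, with 355 of 838 past 2 log2 units, 13 past 4 and none past 6. Among the lower transcripts the median change was -1.97 and the largest was -8.56, with 436 of 902 at or below -2, 60 at or below -4 and 13 at or below -6. The higher transcripts went from a median level of 9.85 RPKM on day 7 to 35.9 RPKM on day 19. Most were already read in the blastocyst: 7 of the 838 had no read in any day 7 library and 21 had at most 3. A mean under 1 RPKM on day 7 was seen in 124. A transcript without a read on day 7 passed the filter only if all 4 day 19 libraries reached 1 RPKM. One without a read on day 19 needed 4 of the 5 day 7 libraries, so the filter limits the first kind more. The lower transcripts went from a median of 23.0 RPKM to 3.36 RPKM. Of these 902, 308 had a mean under 1 RPKM on day 19, 89 had at most 3 reads over the 4 libraries and 29 had none. These sizes describe the called transcripts, which were chosen by the same contrast.

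The higher set held a large share of the reads on day 19. Both sets were chosen by this contrast in the same libraries, so the direction of the values in this paragraph follows from that choice. The 838 higher transcripts took 7.14, 8.20, 4.88, 5.10 and 5.32% of the reads in the day 7 libraries and 21.0, 25.5, 25.8 and 27.8% in the day 19 libraries. The 902 lower transcripts took 8.65, 11.1, 12.5, 8.15 and 3.49% on day 7 and 2.09, 1.65, 1.86 and 1.64% on day 19. Day 7 replicate 5 is the library with the lowest share of the lower set on its day, and 34.3% of its reads lay in the 92-nucleotide transcript described below. Within the higher set, the 10 most abundant transcripts held 27.1% of the set's reads on day 7 and 33.2% on day 19. In the lower set the 10 most abundant held 14.0% on day 7 and 16.1% on day 19. On day 19, 203 of the higher transcripts had a mean of at least 100 RPKM and 34 a mean of at least 1000 RPKM, against 77 and 7 of the same transcripts on day 7. On day 7, 111 of the lower transcripts had a mean of at least 100 RPKM, against 6 of them on day 19.

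The most abundant mRNAs were partly exchanged. Of the 100 transcripts with most reads on each day, 61 were shared. Among the 100 of day 19, 42 were called higher than on day 7, and among the 100 of day 7, 7 were called lower on day 19 and 12 higher. Of all tested transcripts 5.74% were called higher and 6.18% lower, so the 7 lie near the share of all tested. Ranking by day 19 reads favours transcripts that are higher on day 19. A part of the highly expressed transcripts could be bounded: 708 had a mean of at least 100 RPKM on both days, of which 77 were called higher, 6 lower, and 144 had a 95% interval of the change that lay within 1 log2 unit of 0. Over all tested transcripts 1307 (8.95%) were bounded in this way, and the median interval was 1.99 log2 units wide. For most transcripts that were not called, these 9 libraries therefore do not show the levels to be alike.

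The 2 strongest risers by the naming rule were ENSBTAT00000008011 (1143 nucleotides) and ENSBTAT00000054856 (1134 nucleotides). ENSBTAT00000008011 stood at 320, 422, 140, 2.92 and 11.1 RPKM in the day 7 libraries and at 1179, 1596, 1793 and 2450 RPKM on day 19. All day 19 libraries lay above all day 7 libraries, which the naming rule required. On day 7, replicates 4 and 5 were far below the other 3. Its mean went from 179 ± 187 (SD, n = 5) to 1755 ± 530 RPKM (n = 4), which is 4.78 ± 1.17 log2 units (SE; 95% interval 2.24 to 7.31; limma adjusted p = 0.0217). ENSBTAT00000054856 stood at 217, 309, 105, 1.60 and 9.31 RPKM on day 7 and at 806, 1136, 1310 and 1760 RPKM on day 19. It followed the same order of libraries on both days, and rose by 4.73 ± 1.17 log2 units (SE; limma adjusted p = 0.0223). The ratio of the first to the second lay between 1.19 and 1.82 in the 9 libraries. Over the 18 libraries of the series in which the second had at least 100 reads, it lay between 1.31 and 1.54. How reads shared between similar transcripts were assigned is not given in the sources used here, so these may not be independent measurements. The call of both was lost without day 19 replicate 2 (adjusted p = 0.0667 and 0.0673), without day 19 replicate 3 (0.0601 and 0.0620) and without day 19 replicate 4 (0.0877 and 0.0895), and with total reads as a covariate (0.283 and 0.275), all by limma. It was also lost with no filter (0.0623 and 0.0635), in a limma model of all 5 days (0.0683 and 0.0631) and with all 11 libraries placed by label (0.317 and 0.322).

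The 2 strongest fallers went from abundant to almost absent. ENSBTAT00000016392 (792 nucleotides) stood at 377, 936, 1377, 441 and 45.3 RPKM on day 7, and on day 19 it had no read in replicates 1 to 3 and 0.249 RPKM, from 2 reads, in replicate 4. Its log2 change was -8.56 ± 0.76 (SE; 95% interval -10.2 to -6.92; limma adjusted p = 0.000132). Against the 2 reads of day 19, reads per 1e6 were 11191 times as many on day 7 over the pooled libraries (95% exact interval 3097 to 92430, counting error only). ENSBTAT00000022731 (1596 nucleotides) stood at 457, 666, 741, 278 and 45.0 RPKM on day 7, and on day 19 its only read lay in replicate 3, at 0.0576 RPKM. Its log2 change was -8.26 ± 0.67 (SE; limma adjusted p = 0.000111). Both were lowest in replicate 5 among the day 7 libraries. That the days did not overlap was required by the naming rule.

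**Figure D2:**
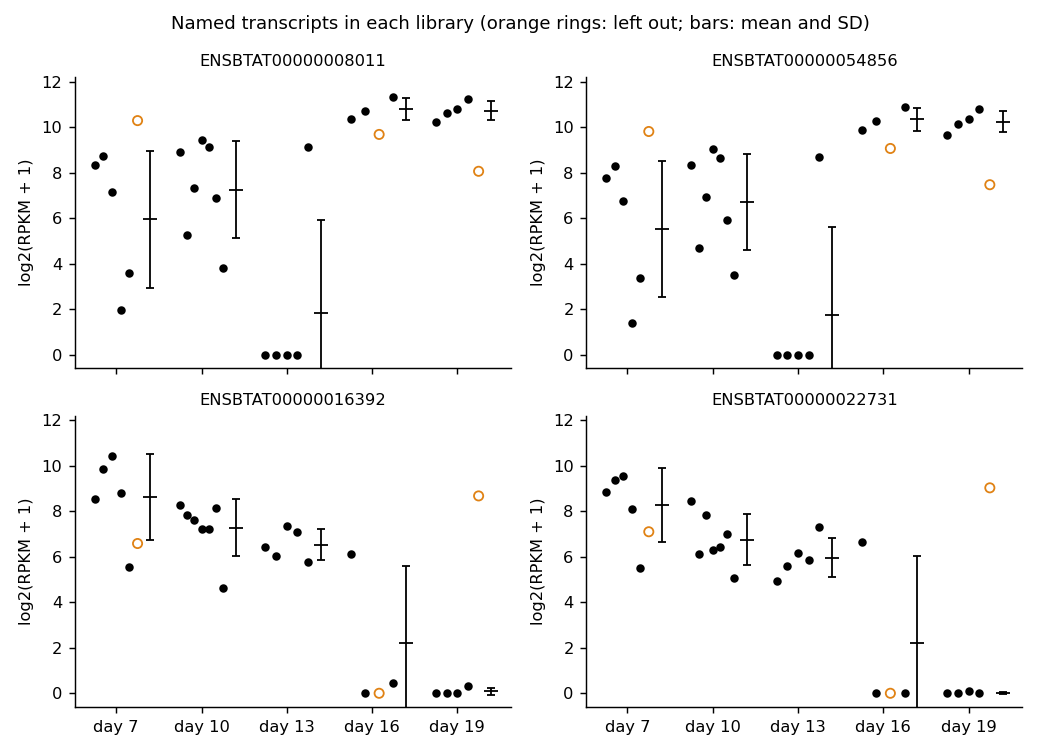
Level of the 2 strongest risers (top) and 2 strongest fallers (bottom), as log2(RPKM + 1), in every library of days 7, 10, 13, 16 and 19; filled points are libraries used, orange rings are libraries left out, and bars give the mean and SD of the filled points of a day. On day 19 the risers sit between 806 and 2450 RPKM and the fallers at or below 0.249 RPKM, while the ring at day 19 stands at 409 and 524 RPKM for the fallers.

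Days 10, 13 and 16 were not used to choose the called transcripts, and show when their levels moved. By the protocols, day 10 embryos were superovulated and pooled in groups of 5 like those of day 7, and day 13 and 16 conceptuses were single and not superovulated, although the sample characteristics of day 13 state the opposite. Pooling and superovulation thus change between days 10 and 13 by the protocols, or between days 13 and 16 by the characteristics, and cannot be told apart from those steps. The fallers declined stepwise. ENSBTAT00000016392 averaged 635 RPKM on day 7. It stood at 192 ± 97.1, 100.2 ± 46.5 and 23.0 ± 39.5 RPKM on days 10, 13 and 16 (SD; n = 7, 5 and 3). Of the day 16 samples 1 stood at 68.7 and the others at 0 and 0.369. ENSBTAT00000022731 averaged 437 RPKM on day 7, then 139 ± 113, 72.1 ± 49.4 and 32.7 ± 56.7 RPKM on days 10, 13 and 16, with the same day 16 library at 98.1 and the others at 0. For both, this library was day 16 replicate 1, which lay within the day 13 range. The risers did not climb in steps. ENSBTAT00000008011 averaged 294 ± 275 RPKM on day 10, had no read in day 13 replicates 1 to 4 and 566 RPKM in day 13 replicate 5, and averaged 1865 ± 637 RPKM on day 16, close to its day 19 level. ENSBTAT00000054856 had no read in the same 4 day 13 libraries, 411 RPKM in the fifth and 1355 ± 491 RPKM on day 16.

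The other strong risers shared much of that pattern. Of the 13 transcripts that were higher by at least 4 log2 units, 9 had day 7 and day 19 libraries in separate ranges. Over all tested transcripts that share was 15.9%, and choosing large changes in the same libraries favours such separation. The mean levels of the 13 on day 19 ran from 70.2 to 3515 RPKM. The median level of the 13 was 81.4, 160, 26.4, 1.05 and 6.22 RPKM in the day 7 libraries and 254, 566, 251 and 571 RPKM on day 19. The blastocyst pools thus spanned more than 100-fold at these transcripts, and day 7 replicate 4, which was not the shallowest, had 6 of the 13 under 1 RPKM. On day 13, 7 of the 13 had no read in any of replicates 1 to 4, where the median of the 13 was 0, whereas all 13 exceeded 10 RPKM in replicate 5. On day 16 all 13 exceeded 10 RPKM in each library, with medians of 479, 585 and 393 RPKM.

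The 60 transcripts lower by at least 4 log2 units had day 7 and day 19 libraries in separate ranges in 56 cases. Over all tested transcripts that share was 15.9%, and choosing large changes in the same libraries favours such separation. The median level of the 60 was 92.8, 136, 158, 51.2 and 10.6 RPKM in the day 7 libraries and 0.167, 0.268, 0.0972 and 0.247 RPKM on day 19. Between 38 and 45 of the 60 stood under 1 RPKM in each day 19 library, and at most 5 exceeded 10 RPKM. In the 7 day 10 libraries their median ran from 6.79 to 80.3 RPKM, and in the 5 day 13 libraries from 4.19 to 10.4 RPKM. On day 13, 33 of the 60 were still at 1 RPKM or more in all 5 libraries. The day 16 libraries differed: the median was 22.9 RPKM in replicate 1, 2.01 RPKM in replicate 4 and 0.779 RPKM in replicates 2 and 3, which were counted as 1 sample.

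**Figure D3:**
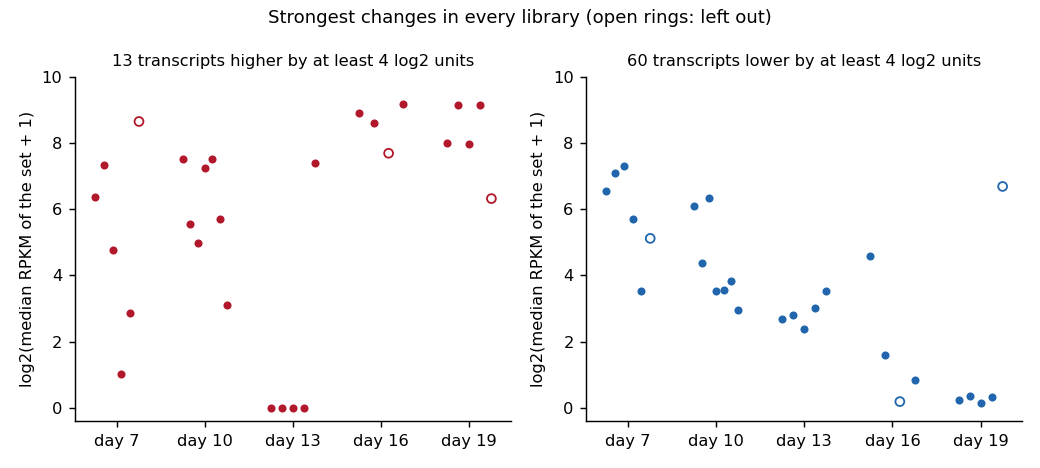
Median level, as log2(median RPKM + 1), of the 13 transcripts higher (left, red) and the 60 lower (right, blue) by at least 4 log2 units, in every library of the 5 days; each point is a library and open rings are libraries left out. The red points drop to 0 in 4 of the 5 day 13 libraries and lie between 251 and 585 RPKM on days 16 and 19, and the blue points go from 10.6 to 158 RPKM on day 7 to at most 0.268 RPKM on day 19, with 1 day 16 library at 22.9 RPKM.

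Over the whole called sets, the largest step of the rise lay between days 13 and 16 and the decline was spread over more days. The median over the 838 higher transcripts of their mean log2 level was 3.16, 3.87, 3.55, 5.16 and 5.13 on days 7, 10, 13, 16 and 19. Their share of reads averaged 6.13 ± 1.46%, 10.5 ± 3.65%, 9.68 ± 2.64%, 24.8 ± 3.27% and 25.1 ± 2.88% on the same days (SD; n = 5, 7, 5, 3 and 4). On days 10 and 13, 210 and 298 of the 838 had a mean log2 level nearer to day 19 than to day 7, and on day 16, 827 had. Of all 14597 tested transcripts, 44.8, 47.2 and 74.0% lay nearer to day 19 on those days. In 450 of the 838 the day 13 mean was below the means of both day 10 and day 16, as in 225 of the 902 lower transcripts. The share over all tested transcripts was not computed for this pattern. On day 16, 416 of the 838 stood beyond their day 19 mean, beside 6080 of all 14597 tested transcripts, a share not much smaller. Only 4 of the 838 (0.477%) were nearer to day 7 on each of days 10, 13 and 16, beside 8.07% of all tested.

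The 902 lower transcripts had a median of mean log2 levels of 4.40, 3.44, 3.34, 2.64 and 2.07 on days 7, 10, 13, 16 and 19. Their share of reads averaged 8.78 ± 3.46%, 5.18 ± 1.35%, 5.18 ± 0.555%, 2.36 ± 0.627% and 1.81 ± 0.211%. On day 10, 355 of the 902 were nearer to day 19, on day 13, 434, and on day 16, 783. For 198 of the 902 the level was nearer to day 19 from day 10 onwards, for 169 from day 13, for 416 from day 16 and for 41 on day 19 alone, and the other 78 were nearer to day 7 on day 16 after an earlier dip. The first 3 counts are 21.95, 18.7 and 46.1% of the lower set, beside 20.03, 13.3 and 40.7% of all tested transcripts. The 41 and the 78 are 4.55 and 8.65%, beside 8.07 and 17.9% of all tested. The 416 include 113 that were nearer to day 19 on day 10 and back on day 13. Among the higher transcripts the corresponding counts were 149, 144, 534 and 4, with 7 others. RNA preparation changed between days 13 and 16 as it did between days 7 and 19, and cannot be told apart from that step.

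**Figure D4:**
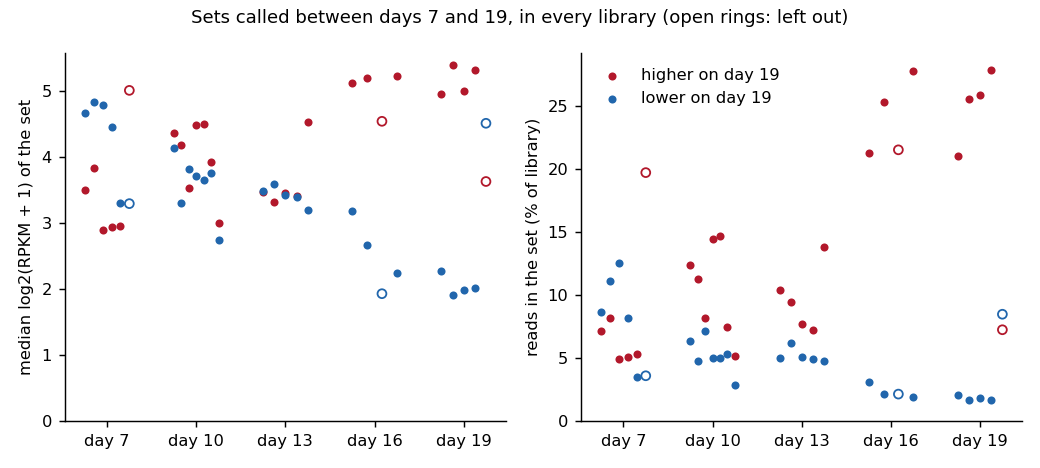
Median log2(RPKM + 1) (left) and share of library reads (right) of the 838 transcripts higher (red) and the 902 lower (blue) on day 19, in every library of the 5 days; each point is a library and open rings are libraries left out. The red set holds 21.0 to 27.8% of reads on day 19 and 4.88 to 8.20% on day 7, and the left-out day 19 library, at 7.23%, lies within the day 7 range.

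A comparison without a shared library, day 16 against day 10, was fitted in the same way on 3 and 7 replicates and 18352 transcripts. It called 87 transcripts higher on day 16 (0.474% of those tested) and 19 lower (0.104%). The number of calls, 106, changed strongly when 1 sample was left out. It was 0 by limma without day 16 replicate 4 (886 of 17226 had an unadjusted p under 0.05). It was 2 without day 16 replicates 2 and 3 and 15 without day 16 replicate 1. Leaving out 1 of the 3 day 16 samples also leaves a smaller group, and the 2 effects cannot be told apart. For day 10, limma made 11 to 21 calls without 1 of replicates 2 to 5. Without replicate 1, 6 or 7 of day 10 it made 421, 78 and 149. At a pseudocount of 0.1 it made 12. Of the 838 transcripts higher on day 19, 836 were tested there: 19 were called higher, none was called lower, and 813 (97.2%) had a higher mean on day 16, with a median change of 1.20. Of the 902 lower transcripts, 890 were tested: 11 were called lower, none was called higher, and 154 (17.3%) had a higher mean on day 16, with a median change of -0.70. Among the tested transcripts of day 19 against day 7 that were also tested here, 55.8% had a higher mean on day 16 and the median change was 0.102. Of the 87 rises, only 28 had also been tested in day 19 against day 7, while all 19 falls had been. The 19 shared rises were 21.8% of the 87 and 2.27% of the 838, and the 11 shared falls were 57.9% of the 19 and 1.22% of the 902. Among the 14465 transcripts tested in both comparisons, 28 were called higher on day 16 and 19 lower. Superovulation, pooling and RNA preparation differ between days 10 and 16 in the same way as between days 7 and 19.

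Blastocyst pools varied among themselves more than day 19 conceptuses. The SD of the log2 level had a median over transcripts of 0.82 on day 7 and 0.35 on day 19, and was larger on day 7 for 90.6% of the tested transcripts. After reads were drawn at random to 473537 in each library these medians were 0.89 and 0.53, and 78.1% of transcripts were more variable on day 7. Spearman correlations across transcripts, which are not independent replicates, averaged 0.757 (0.619 to 0.908) over the 10 pairs of day 7 libraries, 0.938 (0.895 to 0.966) over the 6 pairs of day 19 and 0.726 (0.632 to 0.809) over the 20 pairs between days. At equal depth the averages were 0.732, 0.869 and 0.693. Day 7 replicate 5 was on average nearer to the day 19 libraries (0.745) than to the other day 7 libraries (0.713), and the other 4 day 7 libraries were nearer to their own day. In all, 438 transcripts, 185 higher and 253 lower, stayed called whichever of the 9 libraries was left out. The filter still asked for 4 libraries, so 1649 to 1710 of the 1740 were tested in each fit, and those not tested counted as lost. A transcript without a read on day 7 was thus lost, which favours risers already read on day 7. Leaving out a library also leaves a smaller group, and the part of this in the lost calls was not tested. The 185 had a median level of 14.2 RPKM on day 7 and 64.2 RPKM on day 19, and the 253 went from 38.3 to 1.91 RPKM.

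**Figure D5:**
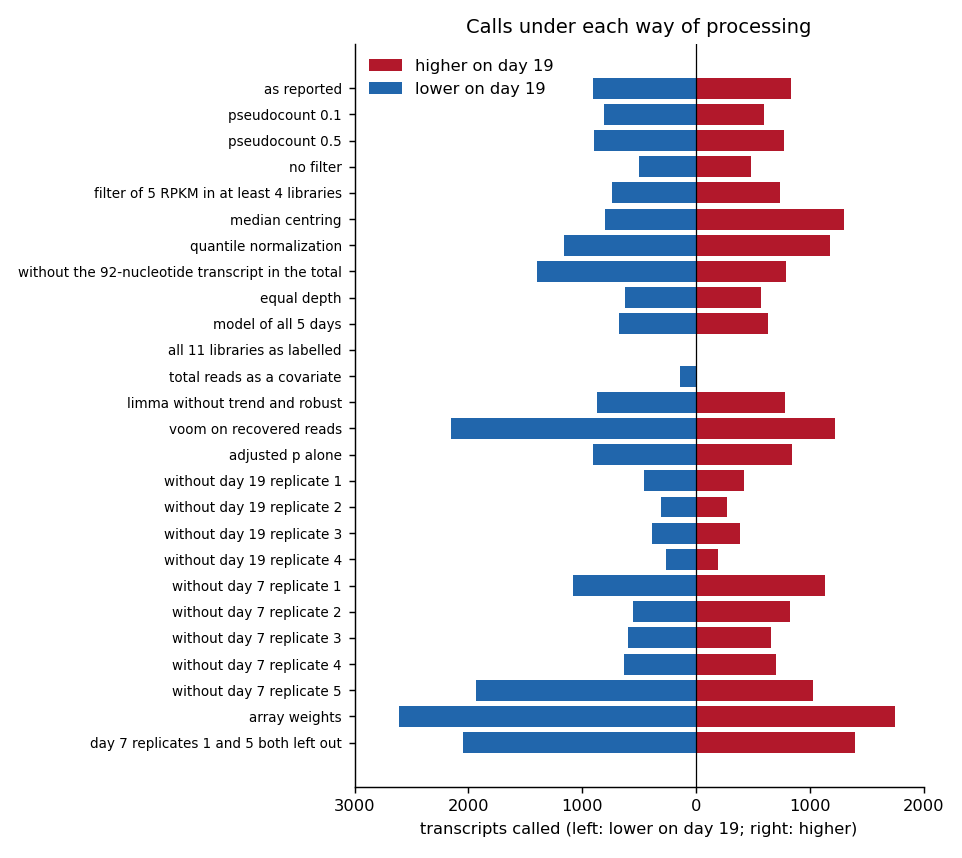
Number of transcripts called lower (blue, to the left) and higher (red, to the right) on day 19 under each way of processing, 1 bar pair for each; the top bar is the result as reported, 902 and 838. Bars shorten to 263 and 191 without day 19 replicate 4 and almost vanish with all 11 libraries as labelled, where 1 transcript was called.

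The number of transcripts detected at equal depth was lower in each day 19 library, but the difference did not pass its test. When 300000 reads were drawn from each library, 14948, 14024, 13603, 13540 and 14432 transcripts had a read in the day 7 libraries and 13043, 12748, 12873 and 12943 in the day 19 libraries. The days did not overlap, with 14109 ± 591 (SD, n = 5) against 12902 ± 124 (n = 4). The exact two-sided permutation test gave p = 0.0159, the smallest that 4 against 5 libraries allow, and 0.0635 after adjustment over the 4 library measures tested. After this adjustment a measure could come under 0.05 only if another had a p nearly as small, so the adjusted value decides nothing. The day 16 samples used stood at 14490 to 16487, above day 19 in each case, and the left-out day 16 replicate 5 at 12307, below each day 19 library.

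A few transcripts that averaged at least 5 RPKM on 1 day were read on that day only. In all 5 day 7 libraries and in none of the 4 of day 19 there were 18, of median length 771 nucleotides and median day 7 level 13.4 RPKM, and no read on day 19 allows up to 0.081 CPM. Of these 18, 17 were tested and 13 were called lower, beside 6.18% of all tested transcripts. Transcripts picked for reads on day 7 only can change in no other direction, so these calls follow from the choice. All 18 had a read in some library of day 16 and 8 had one in each of them. In all 4 day 19 libraries and in none of day 7 there were 2, of 456 nucleotides at 9.63 ± 9.75 RPKM and of 120 nucleotides at 5.90 ± 2.32 RPKM (SD, n = 4), where no read on day 7 allows up to 0.262 CPM. With reads drawn to equal depth the counts of 18 and 2 became 78 and 9. Where the mean had to reach only 1 RPKM instead of 5 they became 33 and 31. The 2 were among the called higher transcripts (5.74% of all tested), a direction that again follows from the choice. The longer of them ranged from 1.23 to 23.0 RPKM between day 19 libraries.

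One very short transcript, singled out after its values were seen, moved with single libraries. ENSBTAT00000042502 is 92 nucleotides long and had the highest RPKM in 22 samples of the series. It took 0.287, 0.36, 1.07, 2.99 and 34.3% of the reads in the day 7 libraries and 3.22, 0.108, 0.160 and 0.154% in the day 19 libraries, so that the days overlap. The means were 7.81 ± 14.9% (SD, n = 5) and 0.911 ± 1.54% (n = 4), with an exact permutation p of 0.349. Its log2 change was -2.42 ± 1.32 (SE; limma adjusted p = 0.252). The 10 most abundant transcripts of each library together held 12.9 ± 15.1% of reads on day 7 and 9.79 ± 1.07% on day 19 (exact permutation p = 0.905, adjusted 0.905). Without the 92-nucleotide transcript their shares were 6.00 ± 1.67% and 9.19 ± 1.40%, so the order of the days turned round.

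Length and level were related to the direction of calls across transcripts, which are not replicates. Under 500 nucleotides, 46 of 614 tested transcripts were called higher (7.49%) and 20 lower (3.26%), with a median change of 0.25. From 4000 nucleotides upwards, 59 of 1194 were called higher (4.94%) and 80 lower (6.70%), with a median change of -0.30. The median length was 1900 nucleotides among the lower transcripts and 1784 among all tested, and under 500 nucleotides lay 2.47 ± 0.76% of reads on day 7 and 3.38 ± 0.25% on day 19 without the 92-nucleotide transcript (SD; exact permutation p = 0.0794, adjusted 0.159). Among the 995 transcripts with a mean of at least 100 RPKM over both days, 148 were higher (14.9%) and 53 lower (5.33%). Under 5 RPKM, 141 of 4070 were higher (3.46%) and 206 lower (5.06%). The part of RNA preparation in the length trend was not tested.

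The values of day 19 replicate 5 went against its label, and those of day 7 replicate 6 went against it in part. In day 19 replicate 5, with 836351 reads, ENSBTAT00000016392 and ENSBTAT00000022731 stood at 409 and 524 RPKM, inside the day 7 range, and ENSBTAT00000008011 and ENSBTAT00000054856 at 266 and 176 RPKM, also inside it. Its level was nearer to day 19 than to day 7 in 178 of the 838 higher transcripts (21.2%) and in 70 of the 902 lower ones (7.76%), against 33.8% of all tested. All 60 of the strongest fallers exceeded 10 RPKM in it. In day 7 replicate 6, with 995791 reads, ENSBTAT00000008011 stood at 1249 RPKM, inside the day 19 range, while ENSBTAT00000016392 stood at 95.1 RPKM, inside the day 7 range and above every day 19 library. It was nearer to day 19 in 731 of the higher transcripts (87.2%) but in 470 of the lower ones (52.1%), against 58.0% of all tested. All 13 of the fallers past -6 log2 units exceeded 10 RPKM in it, with a median of 63.2 RPKM. The same held in day 16 replicate 1, with a median of 51.7 RPKM, while 0 of the 13 did in the other day 16 samples used. The higher and lower sets took 19.7 and 3.58% of the reads of day 7 replicate 6. In day 16 replicate 1 they took 21.3 and 3.06%. With both libraries placed by label among all 11, 1 transcript was called, and the log2 changes of the 2 named fallers were -6.49 and -6.26 (limma adjusted p = 0.274 for each).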

How the data were processed

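The authors deposited 1 RPKM value for each of 28054 Ensembl bovine transcripts in each of 28 libraries. The submitters' processing notes name CASAVA with no version. Neither aligner, genome build nor annotation is given in the sources used here. Of the 28054 identifiers, 0 were found in the RefSeq gene table (37063 genes), so lists of marker genes were not analysed. Whole reads and transcript lengths were recovered from the deposited RPKM values (100% of those above 0 whole within 1e-06 of a read), and the count test on those reads was limma's voom.

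Groups follow the sample labels; where nothing ties files to labels but titles, libraries titled for another day were left out. Pairs of libraries were compared by chi-square: day 16 replicates 2 and 3 differed by little more than sampling noise (mean 1.19 per transcript) and were counted as 1 sample. The test was limma's moderated linear model on log2(RPKM + 1), with robust, trended variances (limma 3.58.1 under R 4.3.3). The method was tried on simulated reads that varied alike on both days, with changes only in transcripts above 5 RPKM. Day 7 libraries varied more in the data, and the simulation does not cover that. Single library values were compared by exact permutation tests. Named transcripts are the 2 largest changes each way among called transcripts with libraries in separate ranges and at least 5 RPKM on average on the day of higher level. The comparison, lists and rules were chosen with earlier results of these data known. Alternatives were pseudocount, filter, scaling, depth, model and libraries. Intervals and limits for reads cover counting error only, since PCR copies are not independent molecules.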

Additional observations from a re-analysis of the deposited data

Results flagged for a closer look

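Of 18 groups of values searched for a library far from the others of its day, 6 had one. Such a search marks about 1 in 20 groups by chance, but these groups are not independent, and the number is no sign of more than chance. Day 19 replicate 1 held 5344893 reads (5.34 in units of 1e6), about 50% of the others of its day. The 92-nucleotide transcript took 34.3% of the reads of day 7 replicate 5 and 3.22% of those of day 19 replicate 1, in both cases the highest of the day. The 10 most abundant transcripts took 39.6% of the reads of day 7 replicate 5, mostly the same reads. Among the named fallers, ENSBTAT00000016392 was above 0 on day 19 only in replicate 4, at 0.249 RPKM, and ENSBTAT00000022731 only in replicate 3, at 0.0576 RPKM, from 2 reads and 1 read, so that 3 libraries at 0 made any read stand apart. In the data left out of the comparison, the 18 transcripts read on day 7 only, at a mean of at least 5 RPKM, were looked up. All 18 had a read in day 19 replicate 5, whose file is titled for a day 7 sample.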

How the results depend on the processing

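The 1740 calls (838 higher, 902 lower) became 990 (487, 503) with no filter, 149 (4, 145) with total reads as a covariate, 1 (1, 0) with the 11 libraries placed by label and 3376 with voom (2153 lower). With array weights they were 4357 (1752, 2605), and without day 7 replicates 1 and 5 they were 3442 (1395, 2047), both chosen after seeing the data. Median centring gave 1300 higher, and totals without the 92-nucleotide transcript gave 1397 lower. Leaving out 1 library gave 454 to 2964 calls, with 191 to 1129 higher and 263 to 1933 lower; without day 7 replicate 2 or 3, 555 and 596 were lower. At equal depth 1189 were called. Of the 1740, 1514 stayed called in each of 3 other scalings. The named risers kept their direction in 25 of 25 alternatives and lost their call in 7. The named fallers were tested in 24 alternatives and lost their call only with all 11 libraries. Without day 7 replicates 1 and 5 the fallers did not pass the filter and were not tested. Day 16 against day 10 gave 12 calls at a pseudocount of 0.1, 14 with no filter, 54 at equal depth and 0 to 421 without 1 library. The difference in the share of the 10 most abundant transcripts, -3.07 percentage points, became 3.19 without the 92-nucleotide transcript, 3.42 for 100 transcripts and 3.62 without day 7 replicate 5, in a range of -5.20 to 3.62 without 1 library. Transcripts read on 1 day only, at a mean of at least 5 RPKM, numbered 18 and 2. These counts became 33 and 31 where the mean had to reach only 1 RPKM. They became 78 and 9 at equal depth, and 17 to 33 and 2 to 18 without 1 library. Causes were not tested. No paired analysis was possible because the labels number no replicates and the numbers printed here follow accession order.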
